A study of Mus musculus with 106 samples.

Results

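Huntington's disease (HD) was examined here in the glutamatergic neurons of the mouse cerebellum, by comparing 6 HD with 5 control RiboTag immunoprecipitates (IPs) of vGluT2 neurons. These 11 libraries, of 106 in the series, were chosen by their labels for cell type, tissue and preparation. In a RiboTag mouse, Cre switches on an HA-tagged form of the ribosomal protein Rpl22, so that an antibody to HA pulls down ribosomes, with the mRNA on them, from the Cre-expressing cells of a tissue homogenate. HD mice carried Hdh Q7/Q200, a knock-in of an expanded CAG repeat in 1 copy of the huntingtin gene, and control mice were Hdh Q7/Q7. Both groups also carried a vGluT2 (Slc17a6) Cre driver and the Rpl22-HA allele, were on a 129S4 background and were about 9 months old. The driver marks every cell with a vGluT2 history, which in the cerebellum means mainly granule cells but also unipolar brush cells and glutamatergic neurons of the deep nuclei. Cerebellar Gad2 IPs (6 HD and 6 control) and total RNA of the vGluT2 line (4 HD and 4 control) served for comparison. The Gad2 mice had a Gad2 Cre driver in place of the vGluT2 driver, with the same HD, control and Rpl22-HA alleles and background. Counts on mouse genes ranged from 34229866 to 40085606 per library in the control vGluT2 IPs (median 36498930) and from 30077307 to 44073936 in the HD vGluT2 IPs (median 37796761).

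Granule cells are the small excitatory neurons that fill the inner layer of the cerebellar cortex and carry mossy fiber input to Purkinje cells through parallel fibers. Their mature state depends on transcription factors such as Neurod1, Etv1 and the Zic family, on calcium-dependent kinases, and on potassium channels that keep their firing sparse. Cerebellar neurons express mutant huntingtin but are less affected in most adults with HD than neurons of the striatum.

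Several libraries stood apart or conflicted with their labels. Sex can be read from Xist and from Y-linked genes, with a summed Y-linked level of at least 10 CPM (counts scaled by library size) taken as male. In 3 of the 36 mouse codes with more than 1 library, libraries of the same code were of both sexes, and all 3 codes belonged to control vGluT2 mice. Control replicate 1 was female (Xist 2.82 CPM, no Y-linked counts), while the cerebral IP under its code was male (Y-linked 28.6 CPM). Control replicate 3 was male (Y-linked 101 CPM), while the cerebral IP under its code was female (Xist 6.52 CPM). Control replicate 4 was female (Xist 29.6 CPM), while the cerebellar total RNA (Y-linked 97.6 CPM), cerebral IP (63.7 CPM) and cerebral total RNA (19 CPM) under its code were male, so that it was the only female of 4. The first 2 codes have 1 library of each sex, from which the one that conflicts cannot be told. Whether the genotype labels are right cannot be read from these values for any of the 3. None of the HD vGluT2 IPs was affected, although sex could not be read in the cerebral IP under the code of HD replicate 6. The main counts of changed genes, and the tests of the changed genes described, are therefore also given without these 3 controls. This leaves control replicates 2 and 5 against 6 HD libraries. In a principal component analysis of the 500 most variable genes, HD replicate 6 lay at 78.9 and HD replicate 4 at 18.7 on the first component (47.4% of the variance), with the other 9 libraries between -27.6 and 4.78. On the second component (17.4%) control replicate 5 lay at -33.4, with the other 10 between -21.1 and 19.1. Control replicate 5 is 1 of the 2 controls kept when those with a sex conflict are left out. Transcript GC content also followed library identity, and in HD replicate 4 the Spearman correlation across genes between deviation from the mean and GC was 0.614, against -0.454 to 0.267 in the other 10.

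The tagged ribosomes carried a granule cell profile. Against 4 control total RNA libraries of the same line, the 5 control IPs were richer in Gabra6 (log2 difference 1.15, SE 0.142, adjusted p = 3.63e-05), the granule cell subunit of the GABA-A receptor. They were also richer in the transcription factor genes Zic1 (0.97, SE 0.149, adjusted p = 0.000185) and Etv1 (0.87, SE 0.168, adjusted p = 0.000956). In that comparison 7865 of 14295 genes (55%) differed. With every library of the 3 conflicting codes left out, 4174 genes differed, and the values were 1.18 for Gabra6 (adjusted p = 0.00832), 0.79 for Zic1 (adjusted p = 0.029) and 0.87 for Etv1 (adjusted p = 0.0505). Summed over 15 granule cell markers, the median control IP held 2.08 times the CPM of the median total RNA library, and the ratio was 1.87 for 10 markers of unipolar brush and nuclear glutamatergic neurons. For the remaining lists the ratio was 0.242 for Purkinje cells, 0.171 for GABAergic interneurons, 0.124 for astrocytes and Bergmann glia, 0.134 for oligodendrocytes, 0.213 for their precursors, 0.169 for microglia, 0.107 for endothelial and mural cells and 0.0875 for choroid plexus and meninges. By these markers the IPs held glutamatergic neurons, with granule cell genes at the highest summed level. The sum for unipolar brush and nuclear markers was mostly Calb2, and the median marker of that list was richer in the IPs by 0.74 in log2. Which of the captured cells that RNA came from was not tested.

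The mRNAs of Htt and Rpl22 were measured first, without telling the tagged form of Rpl22 from the untagged. Htt on chromosome 5 (34761740 to 34912534, GRCm38) stood at 78.1, 93.1, 91.7, 124 and 97 CPM in control replicates 1 to 5, and at 62.2, 77.5 and 92.7 CPM as lowest, median and highest of the HD libraries. The groups overlapped, and the log2 fold change of -0.32 (SE 0.131) did not pass (adjusted p = 0.268). With GC and length trends taken out of each library, an alternative chosen after seeing the data, Htt did pass (adjusted p = 0.00224). Rpl22 stood at 69.6, 55.4, 63.6, 48.7 and 56.6 CPM in the controls and at 57.3, 67.7 and 89.5 CPM in HD, again with overlap (log2 fold change 0.23, SE 0.133, adjusted p = 0.428). Without the 3 controls with a sex conflict neither gene passed, with -0.27 for Htt (adjusted p = 0.489) and 0.32 for Rpl22 (adjusted p = 0.471).

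The summed level of the granule cell markers was lower in HD, with Cbln3 the largest part of the sum. It was 15313, 14511, 15262, 15799 and 12430 CPM in control replicates 1 to 5 and 9882, 11103 and 11641 CPM as lowest, median and highest in HD. Every HD library lay below every control. Of the 15 markers, all tested, 2 fell and none rose (13.3% called, against 2.11% of all genes tested), with a median log2 fold change of -0.30 against -0.01 over all genes tested. DESeq2 also called 2, and with GC and length trends removed 6 of the 15 passed, with a median of -0.33. Against control replicates 2 and 5 only, none of the 15 passed, and the median was -0.06 against 0.02 over all genes. The markers that fell were Neurod1 and Cbln3, the most abundant of the list, which codes for a secreted cerebellin and went from a median of 4560 to 2542 CPM (-0.80 as log2 fold change, SE 0.0858, adjusted p = 0.000339). Without the 3 controls with a sex conflict, Cbln3 gave -0.68 (adjusted p = 0.062). Gabra6 (-0.37, SE 0.15, adjusted p = 0.252), Etv1 (-0.54, SE 0.183, adjusted p = 0.162) and Zic1 (-0.44, SE 0.149, adjusted p = 0.172) did not pass. Median log2 fold changes below that of the granule cell list were found for oligodendrocytes (-0.44), unipolar brush and nuclear cells (-0.37) and GABAergic interneurons (-0.34). For the remaining marker lists they ran from -0.09 (astrocytes and Bergmann glia) to 0.30 (oligodendrocyte precursors and microglia). In CPM of IPs, fewer cells of a type, less RNA per cell and a different share of other captured RNA cannot be told apart.

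Markers listed for other cells gave a mixed picture. The 10 unipolar brush and nuclear markers summed to 1769, 1885, 2301, 2190 and 1985 CPM in the controls and to 2236, 2541 and 3032 CPM in HD, overlapping in 1 control and 1 HD library. Calb2, the calcium buffer calretinin, makes up most of that sum and stood at medians of 1335 and 1994 CPM (0.49 as log2 fold change, SE 0.136, adjusted p = 0.082), while the median member of the list had a log2 fold change of -0.37. Sums for Purkinje cells (medians 2203 CPM in control and 1646 CPM in HD, led by Itpr1), GABAergic interneurons (388 and 326, led by Gad1), astrocytes and Bergmann glia (632 and 583, led by Slc4a4) and oligodendrocytes (703 and 640, led by Mbp) overlapped between the groups. The same held for oligodendrocyte precursors (53.6 and 69.6 CPM, led by Tnr), microglia (33.8 and 36.3), endothelial and mural cells (31.6 and 30.8, led by Vtn) and choroid plexus and meninges (256 and 209, led by Ttr). By edgeR's quasi-likelihood test none of these 9 lists, of the 10 marker lists, held a gene that passed. Of their 101 markers 10 had an unadjusted p under 0.05 (9.9%, against 15.5% of all genes), and 3 each were called by DESeq2 (2.97%, against 4.93%) and with GC and length trends removed (2.97%, against 5.54%). With control replicates 2 and 5 alone, the list medians were -0.71 for oligodendrocytes, -0.64 for GABAergic interneurons and -0.31 for Purkinje cells. They were -0.29 for unipolar brush and nuclear cells and -0.28 for astrocytes and Bergmann glia, against -0.06 for granule cells. For the other lists they ran from -0.05 (oligodendrocyte precursors) to 0.19 (endothelial and mural cells). The part that cell mixture has in the changes given next was not tested.

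A small share of the genes passed between HD and control, in both directions. With edgeR, 285 of 13487 protein-coding genes (2.11%) passed a Benjamini-Hochberg adjusted p of 0.05, with 124 higher (0.919%) and 161 lower (1.19%) in HD. By the same test 2090 of the 13487 (15.5%) had an unadjusted p under 0.05, so the count that passed is not the number of genes changed. Of the 9020 genes with a mean of at least 10 CPM, 201 passed (2.23%), 99 of them higher and 102 lower. Groups did not overlap for 557 of the 13487 genes (4.13%), and 173 of the 201 were among these. Leaving out the 3 controls with a sex conflict reduced the count from 285 to 22 (10 higher, 12 lower), of which 21 were among the 285. Of the genes with a mean of at least 10 CPM, 18 then passed (10 higher, 8 lower), and groups did not overlap for 2022 genes (15%), a bar that fewer libraries meet more easily. Without both HD replicates 4 and 6 it was 205, of which 171 were among the 285. The count was 149 without control replicate 1, 152 without HD replicate 1, 169 without control replicate 3, 173 without control replicate 2, 173 without HD replicate 5 and 188 without control replicate 4. In all 11 fits with 1 library left out, 126 of the 285 passed. With GC and length trends removed, 747 genes passed, 281 of the 285 among them, and DESeq2 called 665, with 284 of the 285 among them.

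By a rule on size of change, level and function, 64 changed genes were chosen, besides Htt and Rpl22. Those chosen by size or level had to have groups that do not overlap, so their separation is fixed by the choice. Of the 64, 43 passed in all 11 fits with 1 library left out. Calls lost in such a fit are given where the genes are described. In controls, the log2 difference of IP against total RNA ran from -1.95 (Dbndd1) to 1.62 (Plk5) among named genes. It was negative, for instance, for Cdh20 (-1.83), Hpca (-1.25), Sdc3 (-1.14) and Zfpm1 (-0.99), and positive for Nab2 (1.46), Vsnl1 (1.42) and Neurod1 (1.28). Which cells the RNA of genes poorer in the IPs came from was not tested. With control replicates 2 and 5 as the only controls, 11 of the 64 passed, namely Ccnd1, Rasa4, Gm3435, 9030025P20Rik, Car9, Igfbp5, Clstn2, Rasd2, Parva, Vsnl1 and Fgf1. Leaving out the 3 controls moved the log2 fold change by over 1.5 times for 3 of the 64, which became smaller, with -0.56 for Nrep, -0.37 for H1f0 and -0.28 for Fzd7. Within the functional lists described next, the calls in that fit were Ccnd1, Rasa4, Rasd2, Vsnl1, Igfbp5 and Fgf1, together with Etv5, a gene outside the 285 chosen after its values were seen. The share of each list that passed with all libraries is given beside its counts, to be set against 2.11% over all genes, of whose 285 calls 161 were lower. Lists were chosen with earlier results of these data known, and no share was tested. Without the 3 controls the median of a functional list moved by 0.19 at most (oxidative phosphorylation), against 0.03 for all genes. Without HD replicates 4 and 6, 47 of the 64 passed. Among the 17 that did not were Stmn4, Dmwd, Arhgap44, Flot1, H1f0, Scn2b, Hpca, Rgs3, Adcyap1r1, Fgf1, Ephb1, Plxna2, Fzd7, Mvd and Atp1b3, with adjusted p-values from 0.0515 (Rgs3) to 0.157 (Fzd7).

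The changed genes differed from the average gene in base composition. Median transcript GC was 54.8% for the genes that rose and 51.9% for those that fell, against 49.9% over all genes tested. Their longest transcripts had medians of 3971 and 3251 bases, against 3507. Across all genes the log2 fold change followed GC with a Spearman correlation of 0.231 and length with 0.0157, a description over genes that are not independent replicates. Genes within 20 Mb of Htt, which can travel with the knock-in allele, made up 3 of the 124 that rose (2.42%) and 2 of the 161 that fell (1.24%), against 203 of 13487 (1.51%).

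Among the well-expressed genes that rose, the largest change was in Ccnd1, which codes for cyclin D1, a partner of the kinases that drive cells out of G1 and a protein also found in neurons that no longer divide. Ccnd1 (ENSMUSG00000070348.5, chromosome 7, 144929931 to 144939925) stood at 26.2, 28.4, 34, 28.6 and 22.3 CPM in control replicates 1 to 5 and at 86.7, 98.6 and 101 CPM as lowest, median and highest in HD. The 6 HD libraries sat close together, each above every control as the naming rule required. The log2 fold change was 1.79 (SE 0.113, adjusted p = 3.44e-06), and 1.95 without the controls with a sex conflict (adjusted p = 0.00114). Of 40 cyclin, cyclin-dependent kinase and related genes tested, 1 rose and 1 fell (5%), with a median of -0.01. The one that fell was Plk5, a member of the polo-like kinase family expressed in neurons and glia, from a median of 146 to 60.7 CPM with overlap between the groups (-1.11, SE 0.245, adjusted p = 0.0325). The Plk5 call was lost in 8 of the 11 fits with 1 library left out, with the highest adjusted p of 0.0859 without control replicate 3, and without the 3 controls with a sex conflict (0.401).

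**Figure D1:**
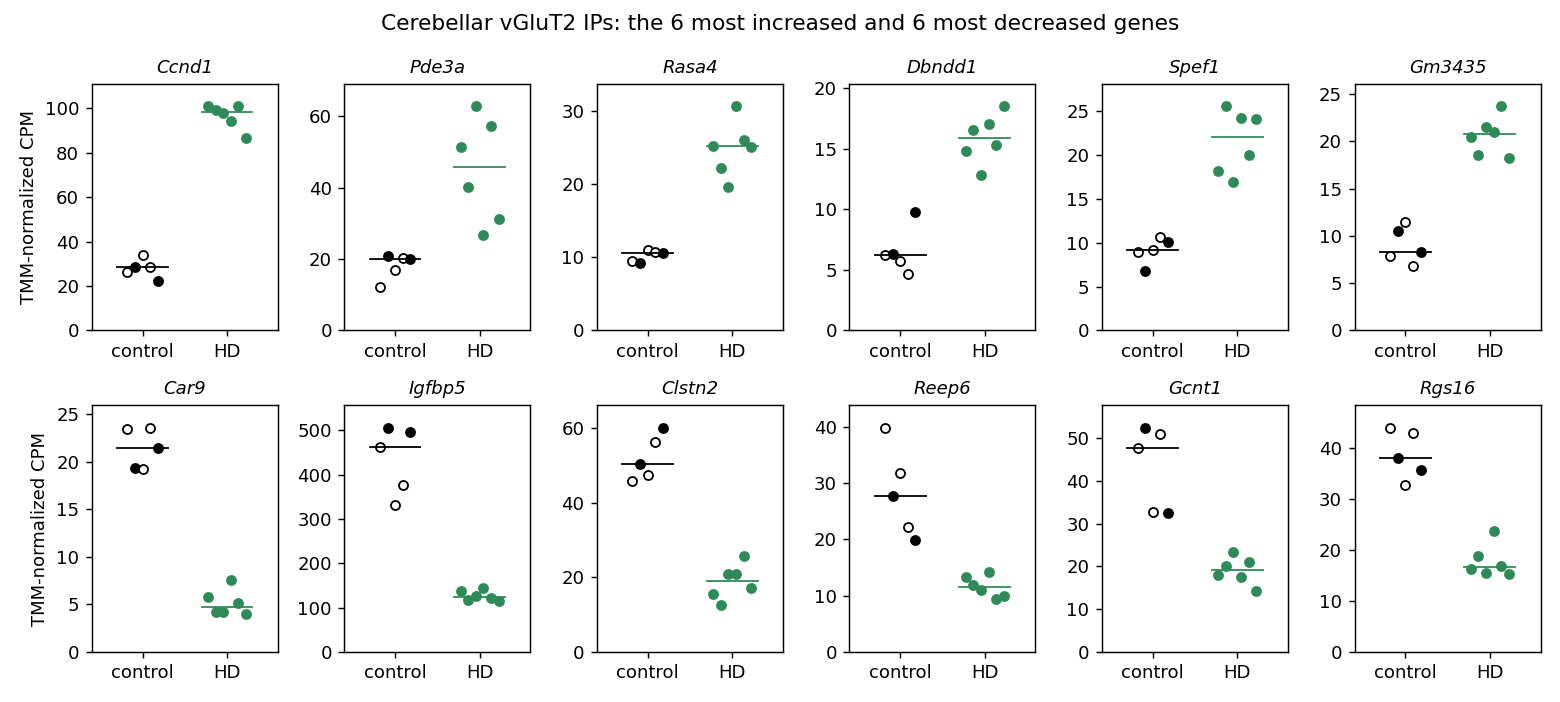
Level in each cerebellar vGluT2 IP, in CPM on scales that start at 0, of the 6 named genes with the largest increase (upper) and decrease (lower) in HD. Points are libraries, lines are medians, and hollow points are the 3 control libraries with a sex conflict. As the naming rule required, HD and control libraries do not overlap, and Ccnd1 goes from a median of 28.4 to 98.6 CPM and Car9 from 21.5 to 4.7 CPM.

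Among the well-expressed genes whose groups do not overlap, those that fell most were Car9, Igfbp5 and Clstn2. Car9 (ENSMUSG00000028463.14, chromosome 4, 43506966 to 43513729), a membrane carbonic anhydrase best known as a target of hypoxia signalling, stood at 23.5, 19.4, 19.3, 23.6 and 21.5 CPM in the controls and at 3.95, 4.7 and 7.58 CPM in HD. The highest HD library was far under the lowest control, and the log2 fold change was -2.06 (SE 0.171, adjusted p = 3.14e-05). Igfbp5 (ENSMUSG00000026185.8, chromosome 1, 72857932 to 72874884), a secreted protein that binds insulin-like growth factors, stood at 462, 506, 331, 376 and 497 CPM in the controls and between 115 and 145 CPM in HD. HD libraries were again tightly grouped and separate, and the log2 difference between genotypes was -1.78 (SE 0.125, adjusted p = 7.37e-06). Clstn2 (ENSMUSG00000032452.12, chromosome 9, 97444395 to 98033181), a cadherin-like membrane protein of the postsynaptic side, stood at 45.8, 50.5, 47.4, 56.5 and 60.2 CPM in the controls and at 12.6, 18.9 and 25.7 CPM in HD. The groups did not meet (-1.47, SE 0.161, adjusted p = 0.000386). With control replicates 2 and 5 alone, all 3 genes still passed, with -1.97 for Car9 (adjusted p = 0.0205), -1.96 for Igfbp5 (adjusted p = 0.000129) and -1.54 for Clstn2 (adjusted p = 0.0356).

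Signalling genes that act on Ras, MAP kinases and G proteins moved in both directions. Of 72 Ras and MAP kinase regulators tested, 1 rose and 3 fell (5.56%, median 0.02). Of the 3, Rasal1 had a mean of 4.59 CPM, under the level for naming, and is named after its values were seen, and the others were Dusp5 and Rasd2. The one that rose was Rasa4 (ENSMUSG00000004952.13, chromosome 5, 136083916 to 136111860), a calcium-responsive GTPase-activating protein that switches Ras off, at 9.56, 9.22, 11, 10.8 and 10.6 CPM in the controls and at 19.7, 25.2 and 30.7 CPM in HD. Its controls were nearly level and its HD libraries all above them (1.28, SE 0.126, adjusted p = 0.00022), and it still passed without the controls with a sex conflict (adjusted p = 0.0356). Dusp5, a nuclear phosphatase that inactivates ERK, fell from a median of 156 to 71.3 CPM (-1.11, SE 0.198, adjusted p = 0.00884). Rasd2, or Rhes, a small GTPase known from the striatum for its binding to mutant huntingtin, fell from 38 to 20.8 CPM (-1.07, SE 0.154, adjusted p = 0.00243). Outside this list Nab2, a corepressor of the EGR transcription factors that MAP kinase signalling induces, fell from 166 to 79.2 CPM (-1.05, SE 0.128, adjusted p = 0.000647). Against control replicates 2 and 5 only, Rasd2 passed (adjusted p = 0.0356), while Dusp5 (0.244) and Nab2 (0.0925) did not.

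Of 77 genes of cyclic nucleotide and G protein signalling, 3 rose and 1 fell (5.19%, median 0.05). Pde3a, a phosphodiesterase that breaks down cAMP, rose from a median of 20.1 to 45.8 CPM, with HD libraries spread between 26.6 and 62.8 CPM (1.32, SE 0.224, adjusted p = 0.00703). Rgs16, which speeds the shut-off of G protein alpha subunits, fell from 38 to 16.6 CPM (-1.12, SE 0.132, adjusted p = 0.000513). Its relative Rgs3 rose from 53.1 to 78.4 CPM (0.56, SE 0.113, adjusted p = 0.0206), as did Adcyap1r1, the receptor for the neuropeptide PACAP, from 114 to 159 CPM (0.45, SE 0.0965, adjusted p = 0.0271). Groups were separate for all 4 genes. Without control replicate 3 Rgs3 no longer passed (adjusted p = 0.0579), and Adcyap1r1 was lost in 7 of the 11 fits with 1 library left out, at most 0.0735 without control replicate 2. Without the controls with a sex conflict the adjusted p was 0.255 for Pde3a, 0.062 for Rgs16, 0.313 for Rgs3 and 0.292 for Adcyap1r1.

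Calcium handling genes changed in both directions, with 3 of 51 genes higher and 3 lower (11.8%, against 2.11% of all genes, with a median of -0.13). Vsnl1 (ENSMUSG00000054459.8, chromosome 12, 11325242 to 11436613), the neuronal calcium sensor visinin-like 1, stood at 2195, 1893, 1722, 1816 and 1950 CPM in the controls and at 1059, 1146 and 1222 CPM in HD. The lowest control was well over the highest HD library (-0.74, SE 0.0843, adjusted p = 0.000405), and the call held without the controls with a sex conflict (adjusted p = 0.0356). Camk4, the nuclear calmodulin-dependent kinase that phosphorylates CREB and is abundant in granule cells, fell from a median of 290 to 184 CPM (-0.67, SE 0.107, adjusted p = 0.00501). Atp2b4, a pump that moves calcium out across the plasma membrane, rose from 29.5 to 55 CPM (0.93, SE 0.152, adjusted p = 0.00541), and Slc8a3, a sodium-calcium exchanger, rose from 54.3 to 81.6 CPM (0.66, SE 0.115, adjusted p = 0.00786). The calcium sensor Hpca (hippocalcin) rose from 63.8 to 146 CPM, with control replicate 5 at 126 CPM inside the HD range (0.99, SE 0.211, adjusted p = 0.0272). Hpca was lost in 5 of the 11 fits with 1 library left out, at most 0.0834 without control replicate 1. With control replicates 2 and 5 alone, the adjusted p was 0.184 for Camk4, 0.0714 for Atp2b4, 0.226 for Slc8a3 and 0.329 for Hpca.

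Of 73 potassium and HCN channel genes tested, 1 rose and 3 fell (5.48%, against 2.11% of all genes), with a median log2 fold change of -0.23. Kcnip4, a calcium-binding partner of A-type potassium channels, stood at 148, 174, 132, 114 and 154 CPM in the controls and at 51.6, 83 and 87.6 CPM in HD, without overlap (-0.93, SE 0.152, adjusted p = 0.00553). It lies on chromosome 5 (48389502 to 49524907), within 20 Mb of Htt, so that an effect of the HD allele and of neighbouring sequence carried with it cannot be told apart. Kcnk2, the leak channel TREK-1, rose from a median of 9.78 to 22.4 CPM (1.07, SE 0.161, adjusted p = 0.0032). Of 30 sodium and calcium channel genes none rose and 1 fell (3.33%, median -0.07), the sodium channel beta subunit gene Scn2b, from 723 to 473 CPM (-0.64, SE 0.12, adjusted p = 0.0133). Against control replicates 2 and 5 only, the adjusted p was 0.0714 for Kcnip4, 0.159 for Kcnk2 and 0.329 for Scn2b.

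Transcription factors of neurons and the granule cell lineage changed in both directions, with 3 of 108 higher and 4 lower (6.48%, against 2.11% of all genes, with a median of -0.03). Neurod1, which drives granule cell differentiation and stays on in the adult, stood at 918, 1031, 1020, 982 and 699 CPM in the controls and at 338, 527 and 640 CPM in HD. Control replicate 5 came nearest to the HD range without entering it (-0.87, SE 0.156, adjusted p = 0.00914). Bhlhe40, a repressor tied to the circadian clock, fell from a median of 147 to 98.7 CPM (-0.74, SE 0.13, adjusted p = 0.00793). Sox4, a factor of immature neurons, rose from 12.4 to 23.6 CPM (0.84, SE 0.16, adjusted p = 0.0144). Outside this list Zfpm1, a cofactor of GATA factors, rose from 9.39 to 20.1 CPM (1.18, SE 0.139, adjusted p = 0.000513), and H1f0, a linker histone of non-dividing cells, fell from 473 to 350 CPM (-0.57, SE 0.113, adjusted p = 0.0182). Of 29 immediate early genes 1 rose and none fell (3.45%, median -0.16). This was Ier5, from 25.7 to 50.9 CPM (0.84, SE 0.152, adjusted p = 0.00959). The H1f0 call was lost without HD replicate 6 (adjusted p = 0.0504). Without the controls with a sex conflict these 6 genes had adjusted p-values of 0.292 for Neurod1, 0.159 for Bhlhe40, 0.134 for Sox4, 0.0657 for Zfpm1, 0.3 for H1f0 and 0.28 for Ier5.

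Psme1 and Tap2 were among the 14 largest increases. Psme1, a subunit of the PA28 activator that changes how the proteasome cuts peptides, stood at 17.4, 12.2, 24.4, 13 and 19.1 CPM in the controls and at 26.8, 35.8 and 50.2 CPM in HD (1.12, SE 0.205, adjusted p = 0.0101). Tap2, which carries such peptides into the endoplasmic reticulum for loading on MHC class I, stood at 10.4, 9.12, 9.72, 8.4 and 9.72 CPM in the controls and at 15.2, 19.4 and 25 CPM in HD (1.06, SE 0.153, adjusted p = 0.00253). As the naming rule required, the groups were separate for both genes, more narrowly for Psme1. Psme1 was the only one of 45 proteasome genes to pass (1 higher, none lower, 2.22%, median 0.14). With control replicates 2 and 5 alone, the adjusted p was 0.134 for Psme1 and 0.153 for Tap2.

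Of 81 growth factors, receptors and binding proteins tested, none rose and 3 fell, Igfbp5 among them (3.7%, against 2.11% of all genes, with a median of -0.10). Fgf1, a growth factor without a signal peptide, fell from a median of 387 to 224 CPM with slight overlap (-0.65, SE 0.135, adjusted p = 0.0243), and passed without the controls with a sex conflict (adjusted p = 0.0426). Of 70 axon guidance genes 2 rose and 1 fell (4.29%, median -0.07). These were the receptors Ephb1, from 52.2 to 74.4 CPM (0.53, SE 0.109, adjusted p = 0.0226), and Plxna2, from 41.3 to 59.2 CPM (0.49, SE 0.115, adjusted p = 0.045), and the membrane-anchored semaphorin Sema7a, from 157 to 111 CPM (-0.54, SE 0.122, adjusted p = 0.0377). Plxna2 overlapped between the groups. Of 63 Wnt and Notch genes 1 rose and 2 fell (4.76%, median 0.01), and the well-expressed one was the Wnt receptor Fzd7, from 124 to 96.1 CPM (-0.44, SE 0.107, adjusted p = 0.0493). Leaving out 1 library ended the call of Fgf1 in 5 of 11 fits (at most 0.069, without control replicate 1), of Ephb1 in 4 (0.069, without control replicate 1), of Plxna2 in 9 (0.123, without control replicate 3), of Sema7a in 9 (0.101, without HD replicate 1) and of Fzd7 in all 11 (0.131, without control replicate 3). Against control replicates 2 and 5 only, the adjusted p was 0.22 for Ephb1, 0.329 for Plxna2, 0.31 for Sema7a and 0.455 for Fzd7.

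Sterol synthesis showed no common direction. Of 27 genes of cholesterol synthesis and uptake 2 rose and 1 fell (11.1%, against 2.11% of all genes, with a median of -0.02). Mvd, which completes the mevalonate part of the pathway, rose from a median of 22.7 to 33.2 CPM (0.71, SE 0.16, adjusted p = 0.0366), and Lss, which closes the sterol rings, rose from 16.8 to 24 CPM (0.53, SE 0.111, adjusted p = 0.0244). The later sterol isomerase gene Ebp fell from 68.4 to 46.6 CPM (-0.54, SE 0.121, adjusted p = 0.0339). Of 241 solute carriers and sodium pump genes 2 rose and 2 fell (1.66%, under the 2.11% of all genes, with a median of -0.03). Besides Slc8a3 the well-expressed ones were the monocarboxylate transporter Slc16a11, from 27.7 to 17.8 CPM (-0.70, SE 0.162, adjusted p = 0.0408), and the sodium pump subunit Atp1b3, from 147 to 105 CPM (-0.50, SE 0.107, adjusted p = 0.0266). Leaving out 1 library ended the call of Mvd in 7 of 11 fits (at most 0.0962, without control replicate 2), of Lss in 6 (0.0718, without control replicate 1), of Ebp in 8 (0.095, without control replicate 1), of Slc16a11 in 9 (0.113, without control replicate 1) and of Atp1b3 in 6 (0.0779, without control replicate 3). Without the controls with a sex conflict none of these 5 passed (adjusted p from 0.163 for Mvd to 0.392 for Ebp).

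Stmn4, Arhgap44, Dmwd, Flot1, Sdc3 and Parva were the most abundant increases per kb of exon among named genes whose groups do not overlap. Parva, an actin-binding partner of integrin-linked kinase, stood at 252, 217, 216, 201 and 217 CPM in the controls and at 357, 373 and 409 CPM in HD, far apart (0.78, SE 0.0899, adjusted p = 0.000421), and passed without the controls with a sex conflict (adjusted p = 0.0356). The heparan sulfate carrier Sdc3 rose from a median of 135 to 204 CPM (0.54, SE 0.0976, adjusted p = 0.0101). The cadherin gene Cdh20, at a low level, rose from 6.42 to 14.2 CPM (1.13, SE 0.176, adjusted p = 0.00402), the single call among 105 cadherin, protocadherin and contactin genes (1 higher, none lower, 0.952%, median -0.09). Stmn4, a stathmin that destabilizes microtubules, rose from 70.5 to 104 CPM (0.58, SE 0.119, adjusted p = 0.0219), the single call among 62 tubulin, neurofilament and microtubule genes (1.61%, median 0.08). The membrane raft protein gene Flot1 rose from 76.1 to 121 CPM (0.75, SE 0.167, adjusted p = 0.0331), Dmwd from 79.4 to 116 CPM (0.58, SE 0.135, adjusted p = 0.0408) and Arhgap44 from 189 to 246 CPM (0.39, SE 0.0937, adjusted p = 0.0459). Leaving out 1 library ended the call of Stmn4 in 4 of 11 fits (at most 0.0688, without control replicate 1), of Flot1 in 7 (0.0925, without control replicate 1), of Dmwd in 10 (0.101, without HD replicate 1) and of Arhgap44 in 10 (0.117, without control replicate 2). With control replicates 2 and 5 alone, the adjusted p was 0.215 for Sdc3, 0.173 for Cdh20, 0.329 for Stmn4, 0.158 for Flot1, 0.184 for Dmwd and 0.22 for Arhgap44.

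Among the named genes whose groups do not overlap, the most abundant that fell stood at higher levels than the most abundant that rose. Per kb of exon, the 6 most abundant that fell had mean control levels of 161 CPM per kb (Scn2b) to 979 CPM per kb (Vsnl1), and the 6 most abundant that rose 21.7 CPM per kb (Parva) to 36.6 CPM per kb (Stmn4). Besides Vsnl1, Neurod1, H1f0 and Scn2b, the former were Nrep and Chn2. Nrep, a small intracellular protein of growing and regenerating neurons, stood at 2408, 1526, 2103, 1714 and 1360 CPM in the controls and at 793, 972 and 1184 CPM in HD, without overlap (-0.91, SE 0.15, adjusted p = 0.00556). Chn2, a Rac GTPase-activating protein, stood at 2468, 2209, 2054, 2116 and 2103 CPM in the controls and at 1365, 1505 and 1577 CPM in HD (-0.56, SE 0.0791, adjusted p = 0.00204). All controls exceeded all HD libraries for both genes. Against control replicates 2 and 5 only, the adjusted p was 0.264 for Nrep and 0.128 for Chn2.

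The remaining genes among the 14 largest increases and decreases had varied or little-known roles. Dbndd1 (6.23 to 15.9 CPM between medians, log2 fold change 1.27), Spef1, a microtubule-binding protein of cilia (9.14 to 22.1 CPM, 1.24), Fam163b (49.2 to 100 CPM, 1.06) and Smoc1, a secreted antagonist of BMP signalling (12.8 to 25.7 CPM, 0.97), rose with adjusted p-values from 0.000729 (Spef1) to 0.00764 (Fam163b). Gm3435 (8.31 to 20.8 CPM, 1.20, adjusted p = 0.000694) and 9030025P20Rik (14.3 to 34.4 CPM, 1.16, adjusted p = 0.000405) rose together and lie close to each other on chromosome 17, at 15010176 to 15022449 and 14978468 to 14991572. How reads were divided between them was not tested, so they may not count as separate observations. Lower in HD were Reep6, which shapes the endoplasmic reticulum (27.7 to 11.4 CPM, -1.28), Gcnt1, a glycosyltransferase that branches O-glycans (47.7 to 19.1 CPM, -1.18), and Mybpc3, best known as a myosin-binding protein of the heart (65.5 to 29.5 CPM, -1.07). Also lower were the membrane protein gene Xk (117 to 61.9 CPM, -1.06), the formin gene Daam2 (52.9 to 25.4 CPM, -1.05), the interleukin receptor subunit gene Il20rb (26 to 13.9 CPM) and Rflnb, which codes for a filamin-binding protein (39.6 to 20.5 CPM, -0.96). These 7 had adjusted p-values from 0.000405 (Rflnb) to 0.00879 (Xk). Without the controls with a sex conflict Gm3435 (adjusted p = 0.0426) and 9030025P20Rik (adjusted p = 0.0267) still passed. The other 11 did not, with adjusted p from 0.052 (Spef1) to 0.234 (Il20rb).

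Of the 23 functional lists, 6 held no gene that passed, and they are grouped here for that reason. By edgeR's quasi-likelihood test none passed among 93 cytosolic ribosomal protein genes (median log2 fold change 0.21), 90 nuclear genes of oxidative phosphorylation (0.04), 73 autophagy and lysosome genes (0.00), 29 genes of endoplasmic reticulum folding and the unfolded protein response (-0.07), 28 of glycolysis and lactate (0.06) and 101 extracellular matrix genes (-0.09). Since the lists were grouped by that outcome, the absence of calls over their 414 genes is fixed by the choice. Of the 414, 46 had an unadjusted p under 0.05 (11.1%, against 15.5% of all genes), DESeq2 called 11 (2.66%, against 4.93%), and 17 passed with GC and length trends removed (4.11%, against 5.54%). Without the controls with a sex conflict again none passed, and the medians were 0.36 for ribosomal proteins, 0.23 for oxidative phosphorylation, 0.06 for autophagy and lysosome, 0.01 for endoplasmic reticulum folding, 0.15 for glycolysis and -0.23 for extracellular matrix, against 0.02 over all genes. Among 39 cytosolic heat shock genes 1 fell and none rose (2.56%, median 0.06), Chordc1, a partner of Hsp90, from 53.5 to 35.5 CPM (-0.69, SE 0.133, adjusted p = 0.0145). With control replicates 2 and 5 alone, Chordc1 did not pass (-0.79, adjusted p = 0.204). With GC and length trends removed its log2 fold change was smaller and did not pass either (-0.40, adjusted p = 0.0831). For the families left aside here, 2 of 118 synaptic release and receptor genes rose and 9 fell (9.32%, median -0.16), and 3 of 32 Polycomb genes rose and none fell (9.38%, median 0.00). Of these families, 2 Polycomb genes passed with control replicates 2 and 5 alone, both higher (median 0.11), and 0 of the synaptic genes (median -0.32).

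Whether the same genes moved in inhibitory neurons of the cerebellum was asked in the Gad2 IPs, which came from other mice. There, 2 of 14098 genes passed (0.0142%, 1 higher and 1 lower, with 324 at an unadjusted p under 0.05), and DESeq2 called 22. Ccnd1 was the higher one, at 1.34 (SE 0.182, adjusted p = 0.0402), and it passed in only 1 of 12 fits with 1 library left out, that without HD replicate 4 (adjusted p = 0.00245), with the highest adjusted p of 0.144 without control replicate 5. Car9 gave -1.88 (SE 0.372, adjusted p = 0.357), Plk5 -1.17 (SE 0.237, adjusted p = 0.377) and Il20rb -1.03 (SE 0.272, adjusted p = 0.911), of a size like that in the vGluT2 IPs without passing. Of the 66 named genes, 56 had the same sign in the Gad2 IPs (84.8%), as did 6805 of 13309 genes tested in both (51.1%).

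The difference in HD effect between vGluT2 and Gad2 IPs, tested directly as an interaction, passed for 15 of 13971 genes (0.107%), 7 with the higher and 8 with the lower change in vGluT2 IPs. Among the named genes, the vGluT2 change exceeded the Gad2 change by 1.40 for Rasa4 (SE 0.188, adjusted p = 0.00133), 1.33 for Dbndd1 (SE 0.242, adjusted p = 0.0159), 1.19 for Zfpm1 (SE 0.206, adjusted p = 0.00999) and 0.93 for 9030025P20Rik (SE 0.177, adjusted p = 0.0213). In the Gad2 IPs these 4 genes had changes of -0.16, -0.08, -0.05 and 0.21. The difference was -1.29 for Clstn2 (SE 0.184, adjusted p = 0.00133), -1.18 for Igfbp5 (SE 0.171, adjusted p = 0.00133), -0.91 for Rgs16 (SE 0.173, adjusted p = 0.0213) and -0.81 for Vsnl1 (SE 0.145, adjusted p = 0.0134). Their changes in the Gad2 IPs were -0.21, -0.62, -0.24 and 0.04. Outside the named genes, and listed after their values were seen, the interaction passed for the acid-sensing channel gene Asic2 (0.90), and for Armh4 (-1.01), Extl1 (-1.32), Stum (-1.83) and Zcwpw1 (-1.24), besides 2 Polycomb genes. When the 3 controls with a sex conflict were left out, 6 genes passed, 5 of them among the 15. These 5 were Igfbp5 (-1.38, adjusted p = 0.00213), Clstn2 (-1.37, adjusted p = 0.0172), Rasa4 (1.46, adjusted p = 0.0186), Armh4 (-1.06, adjusted p = 0.0172) and Stum (-2.11, adjusted p = 0.00365), while the other 10 had adjusted p-values from 0.0524 to 0.225 (Dbndd1).

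**Figure D2:**
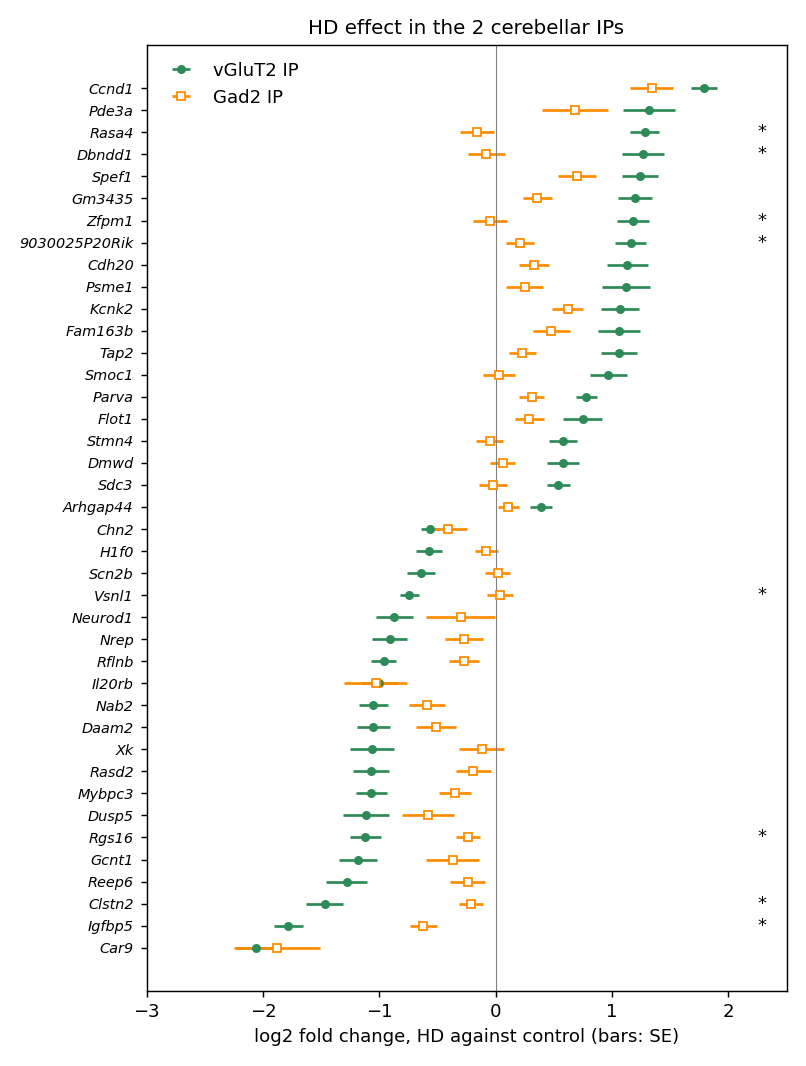
Log2 fold change of HD against control in cerebellar vGluT2 IPs (filled circles, 6 against 5 libraries) and Gad2 IPs (open squares, 6 against 6) for the 40 named genes with the largest changes or highest levels. Bars are standard errors and asterisks mark genes whose interaction passed an adjusted p of 0.05. Ccnd1 and Car9 lie to the same side in both cell types, while Rasa4 (1.28 against -0.16) and Vsnl1 (-0.74 against 0.04) are displaced in vGluT2 IPs.

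Total RNA of the same line came mostly from mouse codes that also gave a vGluT2 IP, so it is not independent of the IPs. It differed too widely between the genotypes for a gene's change there to be read as an effect of HD alone. Between 4 HD and 4 control libraries 7565 of 14630 genes passed (51.7%), 3573 higher and 3992 lower. The correlation of each library's deviations with transcript GC ran from -0.708 to -0.266 in the controls and from 0.374 to 0.632 in HD, so that genotype and library composition cannot be told apart there. Across genes the log2 fold change followed GC with a Spearman correlation of 0.681 and length with -0.429. Total RNA libraries are numbered apart from the IPs. Without total RNA control replicate 2, which shares the code of IP control replicate 4 and so has a sex conflict, 6386 passed. With both trends removed the correlations were -0.101 and -0.00675, 4103 genes passed (28%). Of the 7565, 2651 were among these and 5996 kept their direction. Of the 64 named changed genes, 56 had the direction of the vGluT2 IPs in total RNA and 44 of these passed, and with the trends removed 58 had it and 37 of these passed. Over all genes tested in both, 62.7% had the direction of the IPs, and 59.7% with the trends removed. In the opposite direction 3 passed, namely Cdh20, Plxna2 and Lss, and with the trends removed 1, Cdh20 (-0.65, adjusted p = 0.00609).

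**Figure D3:**
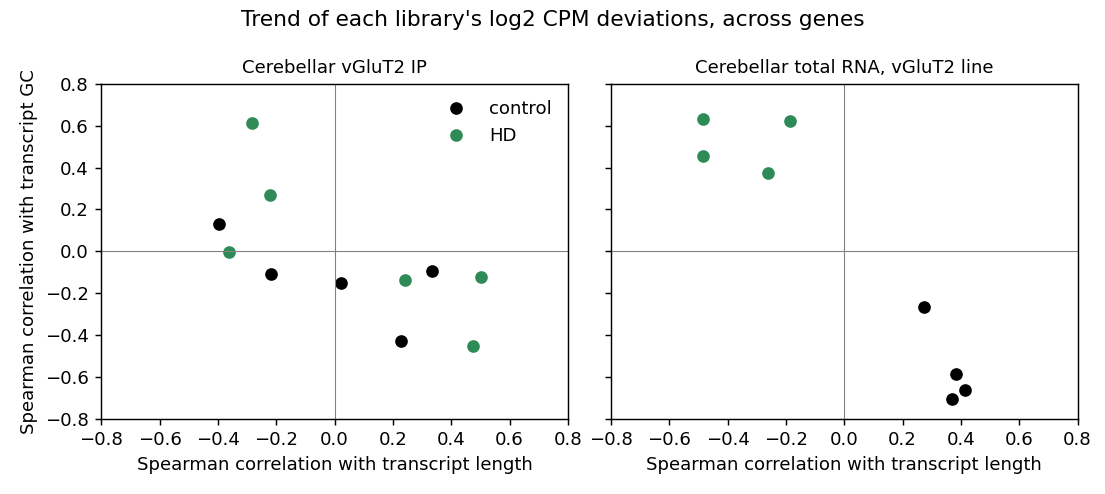
Spearman correlation, across genes, of each library's deviation from the mean log2 CPM with transcript GC (vertical axis) and transcript length (horizontal axis), for cerebellar vGluT2 IPs (left) and total RNA of that line (right). Points are libraries, black for control and green for HD. Genotypes intermingle in the IPs and separate fully in total RNA, with controls at or below -0.266 and HD at or above 0.374 on the GC axis.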

How the data were processed

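The authors aligned paired, stranded poly(A) reads with STAR, quantified them with Salmon through nf-core/rnaseq on GRCm38.p6, and deposited estimated counts per gene, not normalized. Counts were rounded to whole numbers. Gene types, positions, GC and lengths came from GENCODE M21 (GRCm38). Groups came from the sample labels. Each IP library in a group has its own mouse code, so p-values rest on the spread between libraries of different codes, 3 of which conflict in sex. Genes annotated as protein-coding whose mean count in a comparison exceeded 10 were fitted with the quasi-likelihood F test of edgeR 4.0.16 (R 4.3.3) and TMM normalization, with genotype alone in the model, and p-values were adjusted by Benjamini-Hochberg over all genes tested. The interaction had cell type, genotype and their product. Each standard error is the log2 fold change over the root of the F statistic. CPM are TMM-normalized. GC and length trends were taken out as lowess curves per library (span 0.3). The fits were tested on simulated data with known folds.

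Named were Htt and Rpl22, then, among changed genes with a mean of at least 10 CPM and groups that do not overlap, the 14 largest increases and decreases and the 6 most abundant per kb in each direction, and up to 4 well-expressed changed members of each functional list with overlap allowed. Synaptic and Polycomb genes were left out apart from their counts. A few genes that the rule selects are not reported here. Members and lists were chosen with earlier results of these data known. Alternatives were DESeq2 1.42.0, its size factors, other gene and count filters, no TMM, a replicate or mouse block, sex as a covariate, and leaving out libraries. A further 8, chosen after seeing the data, removed GC and length trends, genes within 20 Mb of Htt, the libraries with a sex conflict, or HD replicates 4 and 6. Tables were made in Python 3.11.15 with pandas 2.3.3 and numpy 2.4.6, and figures with matplotlib 3.10.9.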

Additional observations from a re-analysis of the deposited data

Results flagged for a closer look

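Among 132 groups of values looked at, 9 held a library far from the rest of its group, and chance gives about 1 in 20 groups. HD replicate 4 was highest for Zfpm1 (29.1 CPM), Mybpc3 (44.3 CPM), Nab2 (113 CPM) and Mvd (50.5 CPM), and HD replicate 2 was lowest for Plxna2 (46.1 CPM). Control replicate 1 was highest for Slc16a11 (40.8 CPM) and lowest for Slc8a3 (44.1 CPM), control replicate 3 highest for 9030025P20Rik (20.4 CPM) and control replicate 5 highest for Ier5 (38.3 CPM). Control replicates 1 and 3 are among the libraries with a sex conflict.

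The HD effect differed between vGluT2 and Gad2 IPs, by edgeR's test of the interaction, for 8 named genes. The log2 difference, vGluT2 minus Gad2, was 1.40 for Rasa4, 1.33 for Dbndd1, 1.19 for Zfpm1, 0.93 for 9030025P20Rik, -1.18 for Igfbp5, -1.29 for Clstn2, -0.91 for Rgs16 and -0.81 for Vsnl1. Without the 3 controls with a sex conflict, Rasa4, Igfbp5 and Clstn2 still passed, and the others had adjusted p-values of 0.0603 (9030025P20Rik), 0.0974 (Zfpm1 and Vsnl1), 0.156 (Rgs16) and 0.225 (Dbndd1).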

How the results depend on the processing

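For genes changed between HD and control in cerebellar vGluT2 IPs (285), DESeq2 gave 665, removal of GC and length trends 747, and the 2 controls without a sex conflict 22. Leave-one-out fits gave 149 to 255. For the cerebellar Gad2 IPs (2), DESeq2 gave 22, leaving out the library sequenced again 0 (287 at an unadjusted p under 0.05) and leave-one-out fits 0 to 3. For total RNA of the vGluT2 line (7565), removal of the trends gave 4103. For genes whose HD effect differs between vGluT2 and Gad2 IPs (15), DESeq2 gave 73, and leaving out the controls with a sex conflict gave 6. For IP against total RNA (7865), leaving out all libraries of those codes gave 4174. Fewer libraries entered each fit that left some out. For DESeq2 and the trends the cause was not tested.

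The labels give no pairing of HD with control mice by replicate number. Deviations of same-numbered libraries correlated across genes at -0.133 to 0.447 in vGluT2 IPs and at -0.194 to 0.521 in Gad2 IPs. For 1 and 3 of the 5 numbers the control correlated best with the HD library of its own number, a hint from the data and not the design. With a replicate block the counts were 108 for the vGluT2 IPs, with 37 of the 64 named changed genes passing, and 0 for the Gad2 IPs (275 at an unadjusted p under 0.05).

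The other alternatives gave counts within 1.5 times the main count, among them 238 with sex as a covariate and 280 without genes near Htt. No named gene reversed its direction in the vGluT2 IPs under any alternative. In total RNA, removal of the trends reversed 7 of the 66 named genes (Htt, Pde3a, Stmn4, Sema7a, Bhlhe40, Chordc1 and Lss), none called in both fits. DESeq2 called all 64 named changed genes.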
